A study of Bos taurus with 8 samples.

Results

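The 10 genes HPRT1, APRT, PRPS1, PPAT, GART, PAICS, ADSL, ATIC, IMPDH2 and GMPS encode enzymes that make or recycle purine nucleotides. They were taken as all probes on a bovine array whose platform gene symbol is one of these names. That gave 11 probes of 43795 and 10 genes of 15229, with a pair of probes for APRT and a single probe for every other gene. All 10 genes entered the test, among 10188 genes tested, through 10 of the 11 probes.

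Day 7 bovine blastocysts produced in vitro were compared with blastocysts grown in vivo. For the in vitro group, the treatment text describes cumulus-oocyte complexes taken from follicles of 2 to 6 mm on slaughterhouse ovaries, then matured, fertilized and cultured in vitro, with collection 168 h after fertilization. The channel label instead names production after OPU and the title names SOF OPU, so the source of these oocytes is not settled by the labels. For the in vivo group, Holstein females had follicles over 8 mm aspirated and received 8 injections of FSH, 400 mg in all, in doses falling from 60 to 20 mg. A 500 µg dose of a prostaglandin F2α analogue went with each of the final pair of FSH injections. The females were inseminated 12 and 24 h after oestrus and flushed 7.5 days after the first insemination, although the sample label gives 7 days. The groups shared the pooled semen and the extraction protocol. Superovulation, oocyte source and culture therefore differed together and cannot be told apart here. Per the design there were 4 biological replicates per kind of embryo. How many embryos made up a replicate, their sex and the composition of the culture medium were not stated in the labels used here.

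A cell builds the first complete purine, IMP, step by step on the sugar phosphate PRPP. PRPS1 makes PRPP, PPAT takes the committed step, GART, PAICS, ADSL and ATIC carry the later steps, and IMPDH2 and GMPS turn IMP into GMP. Salvage is the shorter route: HPRT1 and APRT attach ready-made bases to PRPP and so recover hypoxanthine, guanine and adenine. Early embryos need nucleotides for DNA replication and transcription, and HPRT1 is also widely used as a reference gene in expression studies.

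Each array carried the RNA of an in vitro and an in vivo sample in different dyes, after amplification. Slide 58 held the in vitro RNA in Cy5 and slide 61 the in vivo RNA in Cy5, with 4 arrays each. Each replicate number thus had 2 arrays with opposite dyes, which were averaged into 1 log2 ratio of in vitro over in vivo, so n = 4. Positive values mean higher in vitro. Median probe intensity per array was 87.3 to 187 in Cy5 and 110 to 267 in Cy3. Across tested probes, replicate 2 stood apart: its ratios correlated at 0.386 to 0.459 with those of the other replicates, which correlated at 0.804 to 0.822 with each other. Counts are therefore also given without replicate 2. Slide and dye orientation were the same split, so a slide effect and a dye effect cannot be told apart, and the means of both slides are given for each of the 10 genes whose slides differed. Amplified RNA of whole embryos was measured, so fewer cells of a type and less RNA per cell cannot be told apart.

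HPRT1 was higher in vitro, PPAT and ATIC were lower in vitro, and the other 7 genes did not pass the test. The test was limma's moderated test on the 4 replicate ratios, two-sided, with Benjamini-Hochberg adjustment over all 10188 genes and a threshold of 0.05. The 1 member called higher of 10 stood beside 9.23% of all tested genes called higher, and the 2 called lower stood beside 12.6%. In either direction 3 of 10 members were called against a background of 21.8%. At the level of probes, adjusted over all 24775 tested probes, HPRT1 and PPAT passed while ATIC had an adjusted p of 0.0578, so 2 of 10 tested probes were called against 15.8% of all. Without replicate 2, 5 of 10 members passed, GART and PAICS joining the other 3, while 36.2% of all genes passed. Without replicate 1, 3 or 4 only HPRT1 passed, while 7.82%, 8.56% and 6.27% of all genes did. The 10 log2 ratios ran from -0.41 to 1.03 with a median of -0.02, 5 of them above 0 and 5 below, and the median of all tested genes was -0.01.

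**Figure D1:**
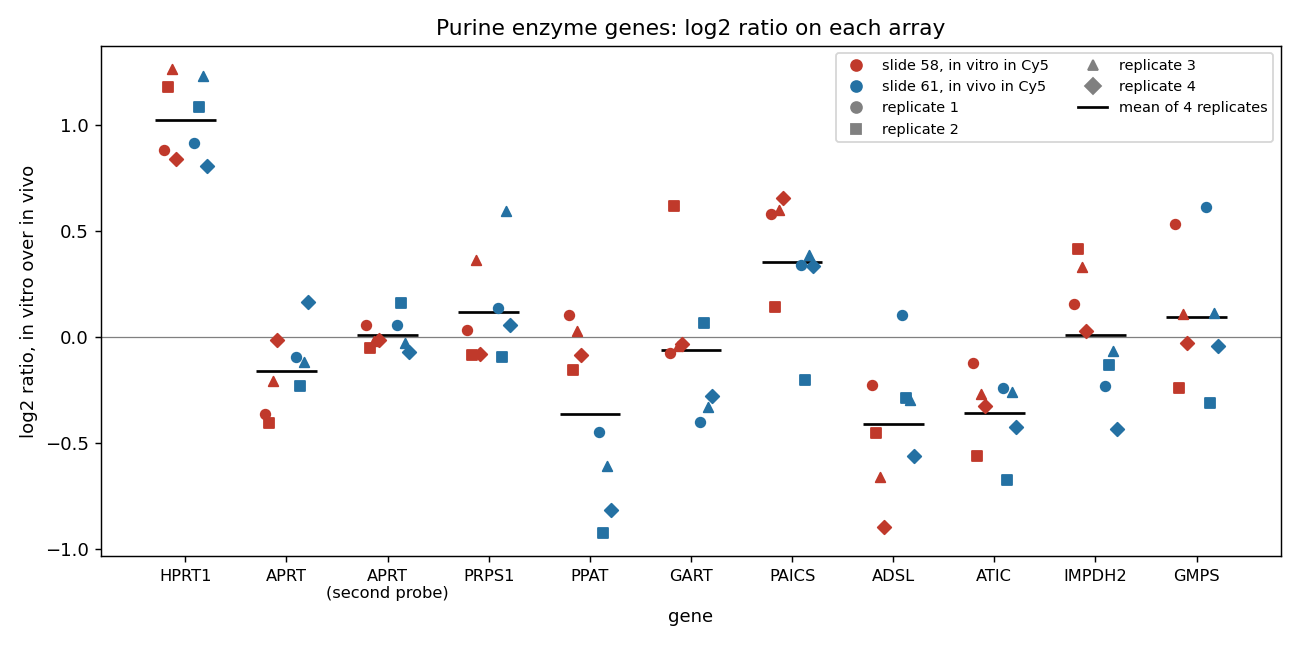
Log2 ratio of in vitro over in vivo (vertical axis) for each of the 11 probes (horizontal axis), with a point for every array, colour for the slide, shape for the replicate and a bar for the mean of the 4 replicates. The 8 HPRT1 points lie between 0.81 and 1.27, above every other member on each array, while the colours separate for PPAT and IMPDH2.

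Of the salvage genes, HPRT1 passed the test and APRT did not. HPRT1, which recovers hypoxanthine and guanine, had in vitro log2 levels of 14.22, 14.50, 14.48 and 14.28 in replicates 1 to 4 and in vivo levels of 13.32, 13.37, 13.23 and 13.45. A log2 level is the normalized brightness of the probe in the dye that holds that embryo's RNA. The lowest in vitro level was above the highest in vivo level, so the groups did not overlap. On slide 58 the log2 ratios were 0.88, 1.18, 1.27 and 0.84, and on slide 61 they were 0.92, 1.09, 1.23 and 0.81. All 8 arrays pointed the same way, and the slide means of 1.04 and 1.01 did not differ by the slide test (adjusted p = 0.568, limma). Averaged over replicates, the log2 ratio was 1.03 ± 0.09 (SE, n = 4), 2.04-fold higher in vitro with a 95% interval of 1.73 to 2.40, and an adjusted p of 0.00556 by limma. HPRT1 had the highest ratio of the 10 genes on 8 of 8 arrays. Its raw spot intensity ran from 8371 to 24258, below the brightest spots of the arrays at 38342 to 40155.

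APRT, which recovers adenine, was close to background. Its tested probe had in vitro log2 levels of 6.85, 6.88, 6.91 and 7.01 and in vivo levels of 7.08, 7.20, 7.07 and 6.93. The groups overlapped through replicate 4, the only replicate in which the in vitro level was the higher. Its mean log2 ratio was -0.16 ± 0.08 (SE, n = 4; 95% interval -0.37 to 0.05; adjusted p = 0.253, limma), with slide means of -0.25 and -0.07. A probe counted as detected when it was brighter than 95% of the negative control spots, which this one was on 7 of 8 arrays for in vitro RNA and on 8 of 8 for in vivo RNA, so it entered the test through the in vivo group. The other APRT probe was detected on 7 of 8 arrays for each kind, was not tested, and had a mean log2 ratio of 0.01 ± 0.05 (SD, n = 4). The raw intensities of both probes ran from 73.2 to 279, beside detection limits of 76.1 to 229 over the arrays and dyes, so a change in APRT was hardly measurable.

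PRPS1 supplies PRPP to both routes. Its in vitro log2 levels were 9.67, 9.72, 10.25 and 9.68, against 9.58, 9.81, 9.77 and 9.69 in vivo. Only replicate 3 stood out, through its in vitro level. On average the log2 ratio was 0.12 ± 0.11 (SE, n = 4; 95% interval -0.17 to 0.40; adjusted p = 0.531, limma), and it was -0.0037 without replicate 3. The HPRT1 log2 ratio exceeded that of PRPS1 by 0.91 ± 0.21 (SD, n = 4) on average and on 8 of 8 arrays, with an exact two-sided sign-flip p of 0.125, the smallest that 4 replicates allow.

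PPAT catalyses the committed step of the route from PRPP to IMP and is the point at which nucleotides inhibit it. Its in vitro log2 levels were 8.31, 8.35, 8.39 and 8.35, and its in vivo levels were 8.48, 8.89, 8.68 and 8.80. The groups did not overlap, and the in vitro levels were nearly alike while the in vivo levels spread more widely. The mean log2 ratio was -0.36 ± 0.08 (SE, n = 4; 95% interval -0.57 to -0.15), 1.28-fold lower in vitro (1.11 to 1.48), with an adjusted p of 0.0370 by limma. The difference lay almost wholly on slide 61. On slide 58 the PPAT log2 ratios were 0.11, -0.16, 0.03 and -0.08, with a mean of -0.03, and on slide 61 they were -0.45, -0.92, -0.61 and -0.81, with a mean of -0.70. The slides differed by 0.67 (adjusted p = 5.9e-05, limma), and on slide 58 alone PPAT had an adjusted p of 0.812. Beyond slide 58 alone, the call was lost with median normalization (adjusted p = 0.0934) and without replicate 1, 3 or 4 (adjusted p = 0.0697, 0.111 and 0.155).

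GART carries 3 of the later reactions on a single polypeptide. Its log2 ratios were -0.24, 0.34, -0.19 and -0.15 in replicates 1 to 4. Replicate 2 was the only one above 0, through an in vivo level of 10.62 where the other replicates read 11.08 to 11.15. GART had a mean log2 ratio of -0.06 ± 0.12 (SE, n = 4; 95% interval -0.36 to 0.24; adjusted p = 0.791, limma). Without replicate 2 it was -0.19 with an adjusted p of 0.0398. The slide means were 0.12 on slide 58 and -0.23 on slide 61 (adjusted p of the difference 0.0020, limma).

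PAICS carries a carboxylation and the joining of aspartate. Its in vitro log2 levels were 13.75, 13.20, 13.58 and 13.72, against 13.29, 13.23, 13.09 and 13.22 in vivo. The in vitro level was the higher in replicates 1, 3 and 4 and about equal in replicate 2. PAICS had a mean log2 ratio of 0.36 ± 0.11 (SE, n = 4; 95% interval 0.07 to 0.64; adjusted p = 0.0853, limma), and 7 of 8 arrays were above 0, with slide means of 0.50 and 0.22 (adjusted p of the difference 0.0017). Without replicate 2 it was 0.48, with an adjusted p of 0.0048. A fit over all 8 arrays with a dye term and the replicate number as a random block gave PAICS an adjusted p of 0.0216. Those 8 arrays are the same 4 replicate pairs in both dye orientations, so that fit adds no biological replicates. RefSeq lists a bovine PAICS pseudogene, and whether the probe tells the copies apart was not tested.

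PPAT and PAICS are neighbours whose spans overlap in the RefSeq annotation of ARS-UCD2.0, and in human and chicken the pair is transcribed in opposite directions from a shared promoter. Their log2 ratios lay on opposite sides of 0 in replicates 1, 3 and 4. The PAICS log2 ratio exceeded that of PPAT by 0.63, 0.51, 0.78 and 0.94 in replicates 1 to 4, and on 8 of 8 arrays. The mean gap was 0.72 ± 0.19 (SD, n = 4), with slide means of 0.52 and 0.91 and an exact two-sided sign-flip p of 0.125, the smallest possible. In all, 3 pairs were compared in this way, chosen with their values known, and adjustment over the 3 left each p at 0.125. The gap of the remaining pair, HPRT1 and APRT, is not given because APRT was close to background.

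ADSL removes fumarate in this route and again on the way from IMP to AMP. Its in vitro log2 levels were 11.98, 11.91, 11.82 and 11.57, and its in vivo levels were 12.04, 12.28, 12.30 and 12.30. The groups did not overlap, although in replicate 1 they nearly met. ADSL had a mean log2 ratio of -0.41 ± 0.12 (SE, n = 4; 95% interval -0.71 to -0.11; adjusted p = 0.0695, limma), with log2 ratios of -0.06, -0.37, -0.48 and -0.73. The slide means were -0.56 and -0.26 (adjusted p of the difference 0.0018), and the adjusted p was 0.0233 on slide 58 alone and 0.156 on slide 61 alone. Without replicate 4 the ADSL log2 ratio was -0.30, with an adjusted p of 0.203. In the fit with the replicate block ADSL passed, with an adjusted p of 0.0161.

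ATIC completes IMP through the final pair of reactions. On slide 58 its log2 ratios were -0.12, -0.56, -0.27 and -0.32, and on slide 61 they were -0.24, -0.67, -0.26 and -0.42. All 8 arrays were below 0, and the slide means of -0.32 and -0.40 did not differ by the slide test (adjusted p = 0.167). In vitro log2 levels were 9.90, 9.90, 10.14 and 9.85, against 10.08, 10.51, 10.40 and 10.22 in vivo. The groups overlapped, since replicate 3 in vitro was above replicate 1 in vivo. The mean log2 ratio was -0.36 ± 0.09 (SE, n = 4; 95% interval -0.59 to -0.13), 1.28-fold lower in vitro, with an adjusted p of 0.0476 by limma. That value was close to the threshold, and ATIC passed in 6 of 15 alternative settings, with adjusted p from 0.0107 to 0.208. Without replicate 1, 3 or 4 its adjusted p was 0.0938, 0.125 and 0.170.

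**Figure D2:**
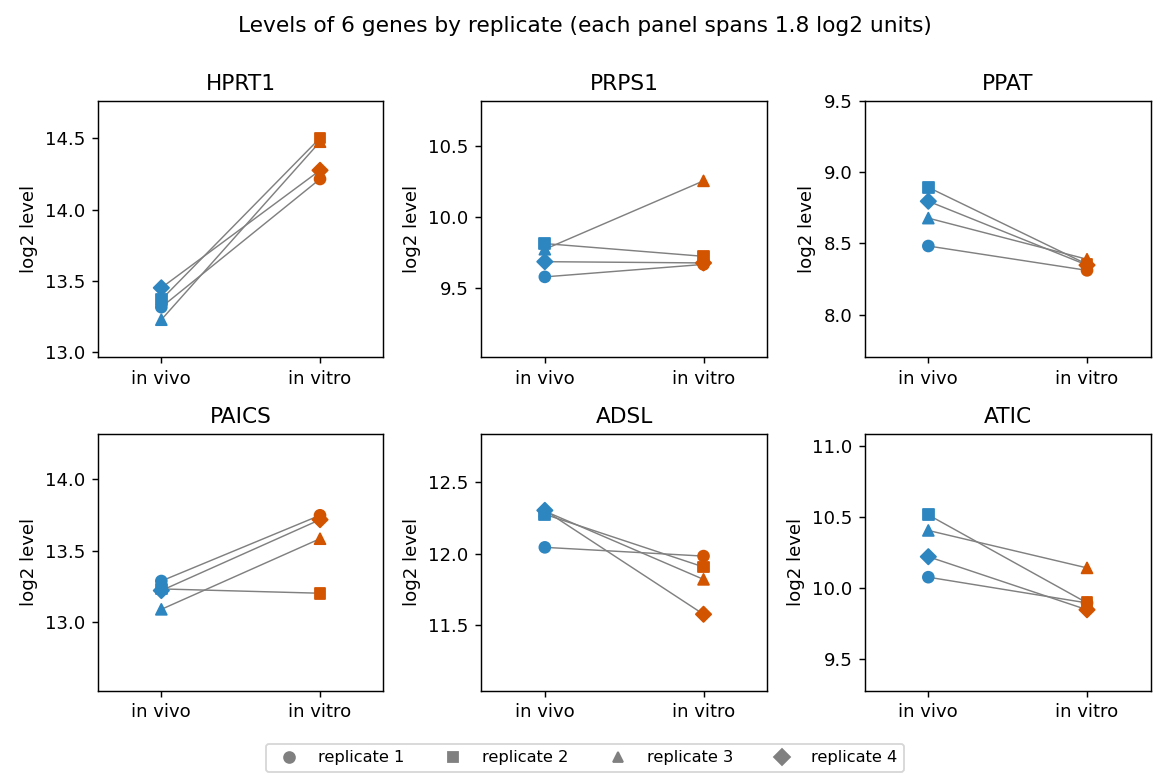
Normalized log2 level (vertical axis) of 6 genes in vivo and in vitro (horizontal axis), with a line joining the samples hybridised together and a shape for each replicate; every panel spans the same number of log2 units. All 4 HPRT1 lines rise by 0.82 to 1.25, all 4 PPAT, ADSL and ATIC lines fall, and 3 of 4 PAICS lines rise.

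On the branch from IMP to GMP, neither gene passed. IMPDH2, which oxidises IMP in the rate-limiting step to guanine nucleotides, had in vitro log2 levels of 10.56, 10.45, 10.59 and 10.52 and in vivo levels of 10.59, 10.31, 10.46 and 10.72. Its slides went opposite ways: all 4 log2 ratios were above 0 on slide 58, with a mean of 0.23, and all 4 were below 0 on slide 61, with a mean of -0.21. The mean log2 ratio over replicates was 0.01 ± 0.08 (SE, n = 4; 95% interval -0.20 to 0.22; adjusted p = 0.948, limma). GMPS, which aminates XMP to GMP, had log2 ratios of 0.57, -0.28, 0.11 and -0.03. Replicate 1 was the highest on each slide, through an in vitro level of 9.85 where the other in vitro replicates read 8.94 to 9.16. The mean GMPS log2 ratio was 0.09 ± 0.15 (SE, n = 4; 95% interval -0.28 to 0.47; adjusted p = 0.729, limma), and it was -0.07 without replicate 1. These intervals leave room for differences of modest size in either direction.

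Across the members, 2 of 10 genes, HPRT1 and ATIC, kept 1 direction on all 8 arrays, beside 22.8% of all tested genes. HPRT1, PPAT and ADSL had in vitro and in vivo levels that did not overlap, so 3 of 10 did, beside 23.2% of all. Among the tested member probes 6 of 10 differed between the slides, beside 68.3% of all tested probes. The shares among the members were thus near those of all genes. The fit with the replicate block called 5 of 10 members, 2 higher and 3 lower, beside 30.6% of all genes, since ADSL and PAICS joined the 3 called.

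**Figure D3:**
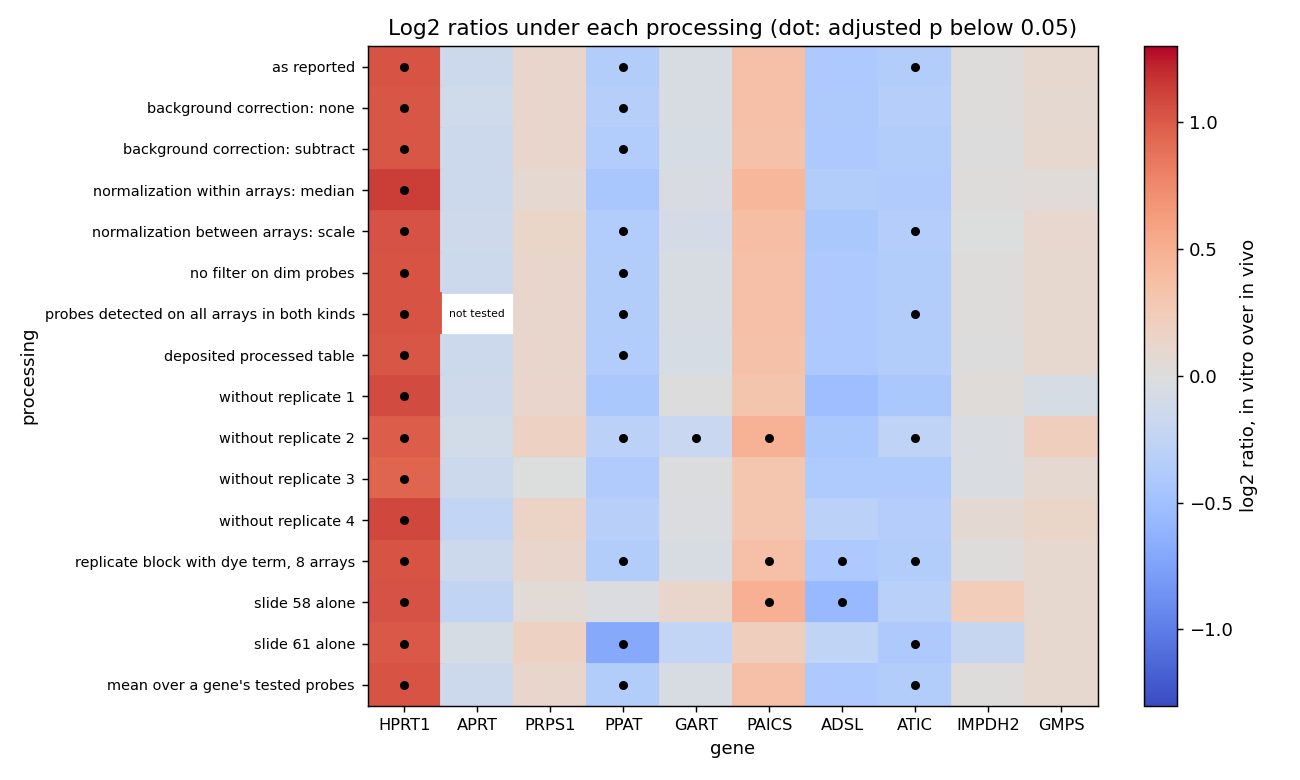
Log2 ratio of in vitro over in vivo (colour) for each of the 10 genes (horizontal axis) under the reported processing and 15 alternatives (vertical axis), with a dot where the adjusted p was below 0.05. HPRT1 has a dot in every line, with log2 ratios from 0.95 to 1.13, PPAT has one in 10 of the 15 alternatives and ATIC in 6.

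HPRT1 and PRPS1 lie on the X chromosome, so transcripts that follow embryo sex were read beside them. XIST, the RNA that coats an inactive X chromosome, had log2 ratios of -3.09, -2.02, 0.30 and -1.56, with a mean of -1.59 ± 0.55 (SE, n = 4; adjusted p = 0.107, limma; 0.0158 with the replicate block). Replicate 3 alone was above 0, and without it the XIST mean was -2.22 with an adjusted p of 0.0418. HPRT1 and PRPS1 both had their highest ratio in replicate 3, at 1.25 and 0.48. Of the Y-linked genes tested, DDX3Y had a mean log2 ratio of 0.13 ± 0.07 (SE, n = 4; adjusted p = 0.272, limma). SRY had one of -0.17 ± 0.10 (SE, n = 4; adjusted p = 0.287, limma), so they lay on opposite sides of 0 and neither passed. Raw intensities ran from 94.0 to 247 for DDX3Y and from 76.5 to 270 for SRY. The detection limits were 76.1 to 229, so a change in either gene was hardly measurable. A chosen list gave 18 other X-linked genes tested, and X-linked genes outside that list were not counted here. Of the 18, 1 was called higher and 2 lower, beside 9.23% and 12.6% of all tested genes. PDHA1 of pyruvate dehydrogenase was higher at 0.52 ± 0.10 (SE; adjusted p = 0.0267). It was so on 5 of 8 arrays only, with slide means of -0.04 and 1.07. Lower were the histone demethylase KDM5C at -0.63 ± 0.08 (SE; adjusted p = 0.0094; slide means -0.80 and -0.47) and the ubiquitin-activating enzyme UBA1 at -0.38 ± 0.10 (SE; adjusted p = 0.0499; slide means -0.17 and -0.59). The median of the 18 log2 ratios was -0.04, and by replicate it was -0.03, -0.12, 0.33 and -0.12. HPRT1 was higher in vitro in each replicate, by 0.82 to 1.25. The part of embryo sex in the HPRT1 difference was not tested.

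**Figure D4:**
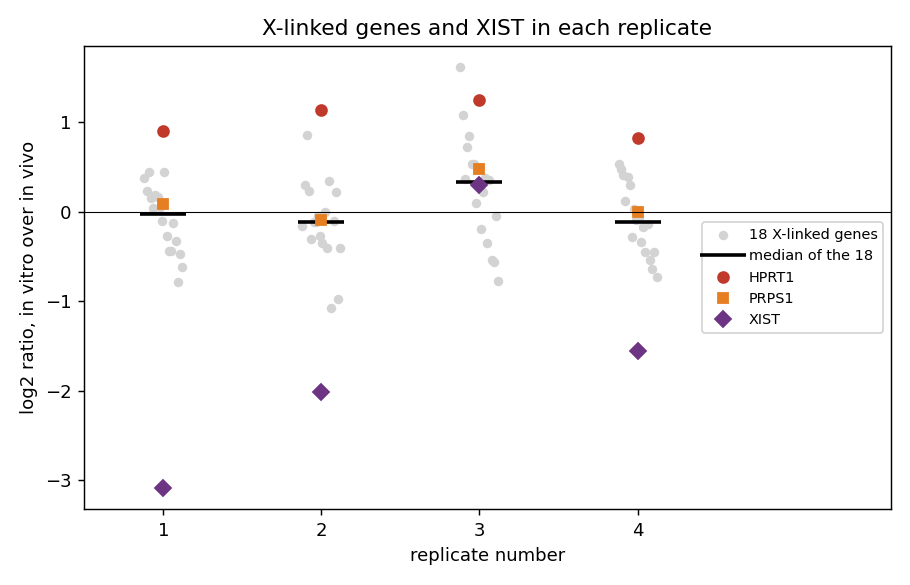
Log2 ratio of in vitro over in vivo (vertical axis) in each replicate (horizontal axis) for HPRT1, PRPS1, XIST and 18 other X-linked genes, with a bar for the median of the 18. HPRT1 lies between 0.82 and 1.25 in all 4 replicates, and XIST is below -1.5 in replicates 1, 2 and 4 and at 0.30 in replicate 3.

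Cell type markers also moved with the comparison. As a check of the labelled stage, 11 of 12 trophectoderm markers were detected on all 8 arrays in vitro and 11 of 12 in vivo, and 5 of 5 inner cell mass markers were in each. Summed trophectoderm marker levels were 15.73 to 16.30 in vitro and 16.53 to 16.70 in vivo, without overlap. Of the 12 tested, KRT19, TKDP1, KRT18, TFAP2A, GATA2 and PAG2 were lower and TFAP2C was higher in vitro. Over all tested genes 12.6% were called lower and 9.23% higher, the background for each marker list here. Inner cell mass markers summed to 13.82 to 14.04 in vitro and 14.23 to 14.69 in vivo, with TDGF1 and NANOG lower of 5 tested. Primitive endoderm markers summed to 15.14 to 15.53 in vitro and 16.00 to 16.09 in vivo, with HNF4A and PDGFRA lower of 4 tested. None of 5 cumulus and granulosa, 3 blood and 4 oocyte markers tested was called. Summed cumulus markers were 9.71 to 9.82 in vitro and 9.80 to 9.95 in vivo, and blood markers 9.43 to 9.99 and 9.53 to 9.88. Oocyte markers summed to 9.55 to 9.65 and 9.48 to 9.55. Of the 6 oocyte markers on the array, 4 were detected on all 8 arrays in vitro and 3 in vivo, among them BMP15, H1FOO and ZP3 in both. Only GDF9 was detected on 0 of 8 arrays of either kind. The sperm marker TNP1 and the uterine marker MUC1, the only tested markers of their lists, were lower in vitro. MUC1 was detected on 7 of 8 arrays in vitro and 8 of 8 in vivo, so it was tested through the group where it was higher. In vitro against in vivo, the sums of their lists were 8.74 to 8.99 against 9.46 to 9.82 and 8.71 to 8.93 against 8.86 to 9.04. The part of cell type make-up in the member differences was not tested.

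The rest of purine metabolism was described from a list of 46 symbols, of which 36 were on the array and 24 were tested. NT5C3 and ADK were higher in vitro, AK1 and ITPA were lower, and 20 did not pass. NT5C3, now named NT5C3A, removes phosphate from pyrimidine nucleotides above all, and its log2 ratio was 0.83 ± 0.11 (SE, n = 4; adjusted p = 0.0096, limma). ADK, which phosphorylates adenosine and so is a further salvage enzyme, had log2 ratios of 0.52, 0.77, 0.30 and 0.70 and a mean of 0.57 ± 0.10 (SE; adjusted p = 0.0174). Both were higher on 8 of 8 arrays, with slide means of 0.98 and 0.69 for NT5C3 and 0.74 and 0.40 for ADK. AK1, which exchanges phosphate between adenine nucleotides, had a mean log2 ratio of -0.32 ± 0.07 (SE; adjusted p = 0.0307), but at an in vitro level of 6.78 it was detected on 6 of 8 arrays, and it entered the test through the in vivo group, where it was detected on 8 of 8. With detection required in both kinds, AK1 left the test and 3 of 23 other purine genes were called, or 13%, beside 24% of all genes. ITPA, which clears inosine triphosphate, had -0.31 ± 0.07 (SE; adjusted p = 0.0416), yet its slide means were -0.66 and 0.04 and the mean over its tested probes was 0.13. PFAS, the remaining enzyme of the route to IMP, was detected on 4 of 8 arrays of each kind and was not tested. The 4 called of 24 came to 16.7%, under the 21.8% of all genes, and the median log2 ratio was -0.10. Without replicate 2 the count was 7, or 29.2%, beside 36.2% of all genes. Without replicate 4 it was 0, beside 6.27% of all genes.

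Pyrimidine metabolism was set beside it as the parallel pathway. Of 20 genes tested, UPRT, CMPK1 and CTPS were higher in vitro and DPYS, UPP1 and UCK1 were lower, 30% of the list against 21.8% of all genes. UPRT, named for the uracil counterpart of the HPRT1 reaction, had log2 ratios of 1.19, 0.95, 1.16 and 0.78 and a mean of 1.02 ± 0.09 (SE, n = 4; adjusted p = 0.0054, limma). Its ratio was thus close to that of HPRT1, and both passed in 15 of 15 alternative settings, although the slide means of UPRT were 1.20 and 0.84. UPRT was not on the chosen list of X-linked genes, and whether it lies on the X chromosome was not checked here. What the likeness of the ratios rests on was not tested. CTPS, now named CTPS1, which makes CTP, was higher by 0.50 ± 0.10 (SE; adjusted p = 0.0272). CMPK1, a nucleoside monophosphate kinase, was higher by 0.51 ± 0.12 (SE; adjusted p = 0.0412), although the mean over its tested probes was 0.03. DPYS, a pyrimidine breakdown enzyme, had a mean of -0.88 ± 0.15 (SE; adjusted p = 0.0179). UPP1, which splits uridine, had -0.75 ± 0.09 (SE; adjusted p = 0.0087), but its slide means were -1.20 and -0.31, with an adjusted p of 0.0829 on slide 61 alone, and the mean over its tested probes was -0.40. UPP1 was detected on 7 of 8 arrays in vitro and 8 of 8 in vivo, so it too was tested through the group where it was higher. With detection required in both kinds, 5 of 17 pyrimidine genes were called, or 29.4%, beside 24% of all genes. UCK1, a uridine kinase, had -0.24 ± 0.05 (SE; adjusted p = 0.0335), with a slide 58 mean of -0.01. The median of the 20 log2 ratios was 0.00. Without replicate 1, 3 or 4 the count fell to 2, or 10%, beside 7.82%, 8.56% and 6.27% of all genes.

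**Figure D5:**
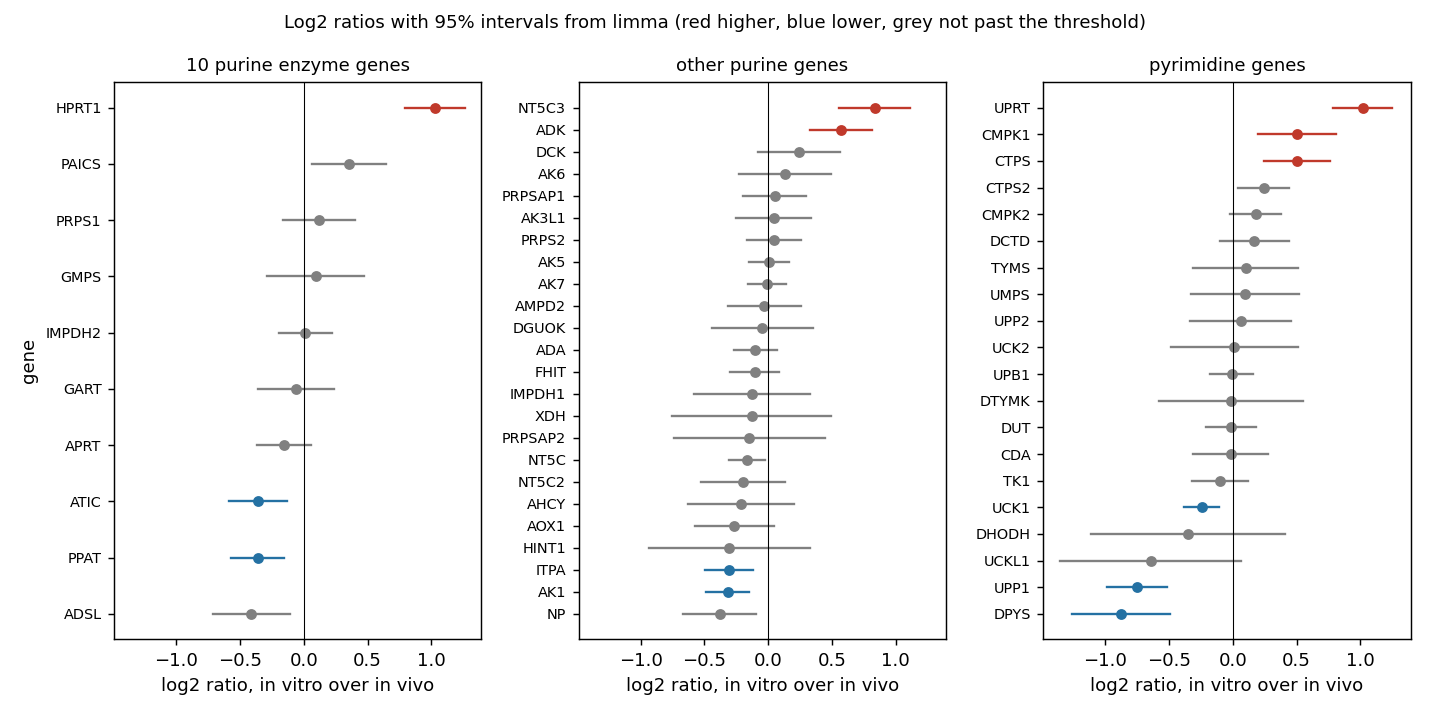
Mean log2 ratio of in vitro over in vivo (horizontal axis) with its 95% limma interval for the 10 members, 24 other purine genes and 20 pyrimidine genes (vertical axes), red where called higher, blue where called lower and grey otherwise. HPRT1 at 1.03, NT5C3 at 0.83 and UPRT at 1.02 lie farthest to the right in their panels.

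For each called member, the 3 tested genes with the smallest root mean square difference over the 8 array log2 ratios were listed. For HPRT1 these were REEP3, of the endoplasmic reticulum, at a difference of 0.151, RSL24D1, of ribosome assembly, at 0.157 and SUDS3, of the SIN3 corepressor, at 0.180. For ATIC they were POLR2C, an RNA polymerase II subunit, at 0.0462, DOCK1, an exchange factor for RAC, at 0.0728 and the zinc finger gene RBAK at 0.0783. For PPAT they were GTF3C2, a subunit of a factor for RNA polymerase III, at 0.0689, CHP at 0.0948 and the receptor LTBR at 0.0958. The nearest gene to HPRT1 was farther from it than any listed neighbour of ATIC or PPAT was from its own. The measure includes the size of the mean ratio, so it depends on how many genes have a ratio of like size, which was not counted.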

How the data were processed

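RNA was extracted with PicoPure, amplified with RiboAmp HSPlus and labelled with Cy3 and Cy5 by ULS, per the labels' protocols. The authors deposited raw spot intensity and local background for 8 arrays, uncorrected per the file headers. The scanner is not stated in the labels or headers. The authors also deposited processed log2 ratios, which correlated at 0.961 to 0.995 with scanner ratios of in vitro over in vivo over 7664 bright probes and have column medians of -0.00385 to 0.00131. How they were normalized is not stated there.

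Intensities were corrected with normexp (offset 50) and loess-normalized within arrays, 1425 control spots at weight 0 (limma 3.58.1, R 4.3.3; figures in Python 3.11.15 with matplotlib 3.10.9). Levels are channel values after Aquantile scaling. A probe was detected where it was brighter than 95% of 153 negative control spots. The 24775 probes detected 8 times out of 8 for in vitro RNA, in vivo RNA or both were tested with lmFit and eBayes. A gene was its brightest tested probe. Arrays of 1 replicate number were averaged; their deviations from the slide mean correlated at 0.703, 0.894, 0.868 and 0.779, against at most 0.149 with another number, and each array carries both kinds of RNA, so the pairing comes from the hybridisation. The difference between slides was tested by the same limma fit on each replicate's difference. The precision is limited by the 4 replicates, and each limma p-value sets a mean ratio against the spread between replicates, moderated across genes.

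Platform symbols gave the names, 21790 probes having one, and all 10 members are current RefSeq symbols; coordinates are left out because no genome build is named in the files. Named are all members, the called genes of each other list (at most 6, by absolute log2 ratio), the 3 nearest genes of each called member, and XIST and DDX3Y. TFAP2C, PFAS, GDF9 and SRY were named after their values were seen. Members and lists were chosen with earlier results of these data known. The procedure was tested on simulated data. Alternatives were other background corrections, normalizations and detection rules, the deposited ratios, each replicate left out, a replicate block (duplicateCorrelation, 0.834), each slide alone and the mean over probes.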

Additional observations from a re-analysis of the deposited data

Results flagged for a closer look

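In groups of 4 replicates, a sample was picked out when its gap to the nearest other, over the group's range, was past Dixon's critical value for 4 samples. This held for 6 of 33 such groups of member values. Chance picks out about 1 in 20 independent groups, but a log2 ratio and the levels behind it are not independent. The share over all tested genes was not computed, so the count is not a result about the members. For GART the replicate 2 log2 ratio was 0.34 against -0.24 to -0.15 in the others, and its replicate 2 in vivo level was 10.62 against 11.08 to 11.15. For PAICS the replicate 2 log2 ratio was -0.0303 against 0.46 to 0.50. PRPS1 in vitro read 10.25 in replicate 3 against 9.67 to 9.72, and ATIC in vitro read 10.14 in replicate 3 against 9.85 to 9.90. ADSL in vivo read 12.04 in replicate 1 against 12.28 to 12.30.

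Of all tested probes, 68.3% passed the limma test of the difference between slides, so such a difference was not particular to the members. The log2 ratio on slide 58 minus that on slide 61 passed this test for 6 members. It was 0.67 for PPAT (adjusted p = 5.9e-05), 0.45 for IMPDH2 (adjusted p = 0.00023), 0.35 for GART (adjusted p = 0.0020) and 0.28 for PAICS (adjusted p = 0.0017). It was -0.30 for ADSL (adjusted p = 0.0018) and -0.18 for APRT (adjusted p = 0.0146). The slides carry the same pairs of replicates in opposite dyes.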

How the results depend on the processing

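HPRT1 passed in 15 of 15 alternatives, with log2 ratios of 0.95 to 1.13. The count of called members was 3 as reported (21.8% of all genes), 1 with median normalization (19.1% of all genes), 5 with the replicate block (30.6% of all genes), and 1 to 5 when a replicate was left out (6.27% to 36.2% of all genes). On the probe level it was 2 as reported, beside 15.8% of all tested probes. It was 1 with median normalization or without the filter on dim probes, 5 with the replicate block, and 1 to 5 when a replicate was left out. Shares of all probes in these settings are not given here, and those of all genes were 19.1%, 13%, 30.6% and 6.27% to 36.2%. Leaving out a replicate gave 639 to 3689 called genes of all tested against 2225, 0 to 7 other purine genes against 4, and 2 to 9 pyrimidine genes against 6; the highest counts came without replicate 2. Slide 58 alone called 3372 genes of all tested (33.1%) and 8 other purine genes (33.3%). The fit with the replicate block called 3119 genes of all tested (30.6%), 5 other purine (20.8%) and 7 pyrimidine genes (35%). Among members, the fit with the block changed the calls of ADSL and PAICS only, and beyond them it changed the call of XIST among the genes followed across settings. Over the replicates left out in turn, GART ran from -0.19 to 0.0013, GMPS from -0.0662 to 0.22, IMPDH2 from -0.0341 to 0.0808 and PRPS1 from -0.0037 to 0.19. Directions turned for GART without replicate 1 (0.0013) and on slide 58 alone (0.12), for GMPS without replicate 1 (-0.0662) and for PRPS1 without replicate 3 (-0.0037). They turned for IMPDH2 under scaling between arrays (-0.0038), without replicate 2 (-0.0341) or 3 (-0.0307) and on slide 61 alone (-0.21), and for ITPA on slide 61 alone (0.0433) and as the mean over probes (0.13). Of these only ITPA was called as reported; the cause was not tested. Probes near background, such as those of APRT and AK1, may understate a change.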
